A study of Mus musculus with 15 samples.

Results

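The genes described here encode the proteins of the mitochondrial ribosome whose mouse symbols are Mrpl or Mrps followed by a number. They were followed for 24 h after the MYC transgene was turned off in mouse T-ALL cells, a leukemia of immature T cells. Of 53380 features in the deposited tables, 78 symbols had this form and 77 had at least 10 counts in at least 3 libraries. These 77 members comprised 48 large subunit (Mrpl) and 29 small subunit (Mrps) genes, and every one of them also passed the low-count filter of the test. The remaining gene, Mrpl53, had 0 counts in all 15 libraries. The annotation places 88.0% of its exon bases on another gene of the same strand.

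The cells were cultured leukemia cells from tumors of EμSRα-tTA/tet-O-MYC mice of the FVB/N strain, in which a tetracycline-controlled activator drives a human MYC transgene until doxycycline is added. All groups carried both transgenes. The groups were MYC off at 2, 4, 8 and 24 h of doxycycline and MYC on at 0 h (labelled mock), with 3 polyA RNA libraries each and 15 in all. The sources used here do not say whether the line was a clone or whether the libraries within a group were separate cultures. The p-values therefore measure only the spread between these libraries, which may be technical.

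Library totals were similar, from 25852711 to 27102318 counts. The MYC transgene followed the labels, at 2024 ± 52.3 CPM (counts scaled to the size of the library) at 0 h, 24.8 ± 1.98 CPM at 2 h and 3.29 ± 0.314 CPM at 24 h (SD, n = 3 libraries each). Of 14 T cell markers 13 averaged at least 1 CPM over the 15 libraries, whereas the B cell gene Pax5 and the erythroid gene Hbb-bs had 3 or fewer counts in all of them together. The summed level of 7 myeloid markers was 27.9 to 37.2 CPM at 24 h and 9.80 to 11.8 CPM at 0 h. Of these, Lyz2, Adgre1 and Elane had 3 or fewer counts, and 3 others averaged at least 1 CPM over the 15 libraries. Of 3 myeloid markers that were tested, 1 was called higher at 24 h. The summed level of 6 fibroblast and stroma markers was 2.7 to 4.7 CPM at 24 h and 1.2 to 1.6 CPM at 0 h. The part of these markers in the results was not tested. The third 24 h library stood apart, with a chi-square per degree of freedom of 77.7 and 85.4 against the other 24 h libraries, compared with 2.81 to 16.5 for all other replicate pairs. In it 3.48% of counts fell on cytosolic ribosomal protein genes, which had 5.44% and 5.79% in the 24 h libraries 1 and 2. Values without this library are given for part of the results, and other 24 h values may also depend on it.

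The mitochondrial ribosome is a separate machine inside mitochondria that translates the few mRNAs of the mitochondrial genome, all of which encode subunits of the respiratory chain and ATP synthase. Its rRNAs are made in the organelle, but all of its proteins are encoded in the nucleus, translated in the cytosol and imported through the TOM and TIM complexes. MYC is known for raising the transcription of genes for ribosome production and mitochondrial biogenesis, and proliferating T cells are known to depend on mitochondrial translation. Symbols do not always give the position in the ribosome. The products of Mrps18a and Mrps30 sit on the large subunit, and that of Mrps36 is a component of the 2-oxoglutarate dehydrogenase complex and not of the ribosome.

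The members were chosen by symbol and not by sequence, and they lie on 17 chromosomes. RefSeq windows on GRCm38.p6, from 250 bases before to 50 bases after the annotated start, were available for 68 of the 77 members. The canonical E-box CACGTG, the motif bound by MYC with MAX, was searched on both strands and was present in the windows of 5 of 68 members (7.35%), against 11.7% of 9557 tested genes and 8.09% of all 27025 genes in the table. The motif CCGGAAG, to which ETS factors such as GABPA bind, was present in 25 of 68 members (36.8%), against 21.4% of tested genes. GCGCATGC, the motif of NRF1, was present in 8 of 68 members (11.8%), against 6.19% of tested genes. AAGATGG, the motif of YY1, was present in 13 of 68 members (19.1%), against 8.62% of tested genes. GGGCGG, a GC box, was present in 34 of 68 members (50%), against 67.7% of tested genes. These are matches of letters and not binding sites, and some windows hold more than 1 motif.

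The 5 windows with an E-box are shown because they are the only members whose searched promoter held the canonical MYC motif. Each line gives 60 bases around it, 5′ to 3′ on the gene's strand, with the E-box and any CCGGAAG (or its reverse complement) in capitals. The E-box began 43 bases before the start in Mrpl36 (chr13:73330939-73330998, plus strand), 33 bases before it in Mrpl20 (chr4:155802818-155802877, plus strand) and 131 bases before it in Mrpl2 (chr17:46646063-46646122, plus strand). It began 162 bases before the start in Mrpl37 (chr4:107066996-107067055, minus strand) and 163 bases before it in Mrps18c (chr5:100798569-100798628, plus strand). Mrps18c was the only member of the 68 with both motifs.
Mrpl36: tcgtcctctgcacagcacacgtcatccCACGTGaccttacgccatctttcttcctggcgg
Mrpl20: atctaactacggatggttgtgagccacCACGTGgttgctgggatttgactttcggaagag
Mrpl2: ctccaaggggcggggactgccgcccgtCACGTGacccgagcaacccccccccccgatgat
Mrpl37: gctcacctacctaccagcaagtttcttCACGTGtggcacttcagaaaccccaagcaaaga
Mrps18c: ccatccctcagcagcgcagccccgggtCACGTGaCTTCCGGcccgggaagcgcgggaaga

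The changes of these 5 genes did not share a direction. At 24 h against 0 h, Mrpl36, Mrpl37, Mrpl2 and Mrpl20 were lower, with log2 fold changes of -1.43, -1.29, -0.99 and -0.70, and Mrps18c was at 0.22. The median log2 fold change at 24 h was -0.99 over the 5 members with an E-box and -0.76 over the others. It was -0.40 over the members with CCGGAAG and -0.82 over those without. The cores of 5 promoters, from 90 bases before to 30 bases after the start, are shown for the genes with the lowest values at 24 h (Mrpl12, Mrps6 and Mrps18b), for the paralog Mrps18a and for the gene that rose at 24 h (Mrpl58). They lie at chr11:120484547-120484666 (plus strand), chr16:92058246-92058365 (plus strand), chr17:35916411-35916530 (minus strand), chr17:46110914-46111033 (plus strand) and chr11:115403662-115403781 (plus strand). None of the 5 held an E-box in its searched window. Capitals mark CCGGAAG, which stood in the Mrps18a core and at 2 places in the Mrpl58 core.
Mrpl12: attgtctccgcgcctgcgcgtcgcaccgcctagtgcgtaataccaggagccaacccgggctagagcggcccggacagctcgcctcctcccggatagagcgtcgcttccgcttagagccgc
Mrps6: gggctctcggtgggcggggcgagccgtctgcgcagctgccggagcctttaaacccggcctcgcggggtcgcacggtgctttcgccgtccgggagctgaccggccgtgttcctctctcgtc
Mrps18b: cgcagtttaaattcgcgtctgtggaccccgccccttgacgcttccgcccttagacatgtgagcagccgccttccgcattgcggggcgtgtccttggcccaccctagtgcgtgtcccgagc
Mrps18a: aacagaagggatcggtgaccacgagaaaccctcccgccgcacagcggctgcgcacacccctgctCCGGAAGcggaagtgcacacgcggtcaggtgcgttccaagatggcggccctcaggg
Mrpl58: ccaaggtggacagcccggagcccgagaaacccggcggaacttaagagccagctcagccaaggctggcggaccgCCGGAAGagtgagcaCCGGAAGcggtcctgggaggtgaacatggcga

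The authors' TPM is an abundance corrected for the summed exon length of a gene in the annotation. Per length, members spanned a wide range at 0 h, from 13.4 TPM for Mrpl33 to 481 TPM for Mrpl34. The median over all members was 88.0 TPM. The summed exon length was 7326 bases for Mrpl33 and 607 bases for Mrpl34, so this order depends on the annotation as well as on the counts. The median was 113 TPM for the large and 76.2 TPM for the small subunit genes. The highest after Mrpl34 were Mrpl12 at 444 ± 6.70 TPM and Mrpl22 at 405 ± 8.64 TPM (SD, n = 3). Across the 77 genes the log2 fold change at 24 h showed little relation to the level at 0 h (Spearman's rho = -0.02) or to exon length (rho = -0.13), a description over genes that share libraries and are not independent.

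Was the whole set lower once MYC was off, and from which time? Counts were compared by edgeR's quasi-likelihood test on all 14485 genes that passed the low-count filter, with TMM factors for library composition. Calls required a p under 0.01 after Benjamini-Hochberg adjustment, and changes are log2 fold changes with their standard error. At 24 h, 57 of the 77 members were lower and 1 was higher than at 0 h, whereas 28.1% of all tested genes were called lower and 30.7% higher. The median log2 fold change of the members was -0.78, with a range of -1.98 to 0.65, against 0.07 over all tested genes. In 61 members every 24 h library lay below every 0 h library, as in 33.1% of tested genes. The median member stood at 58.4% of its 0 h level, or at 54.4% to 64.8% as single libraries were left out. Relative to the mean at 0 h, the median log2 ratio over members was -0.66, -0.60 and -1.16 in the 24 h libraries. Without the third of these, 57 members were lower and 5 higher, and the median was -0.63. On library totals instead of TMM factors, the median of all tested genes shifted by 0.27, and 46 members were lower and 5 higher. In bulk RNA, a fall in some of the cells and a smaller fall in all of them cannot be told apart. The values are relative to the library, so an equal change of all RNAs in a cell would not show.

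**Figure D1:**
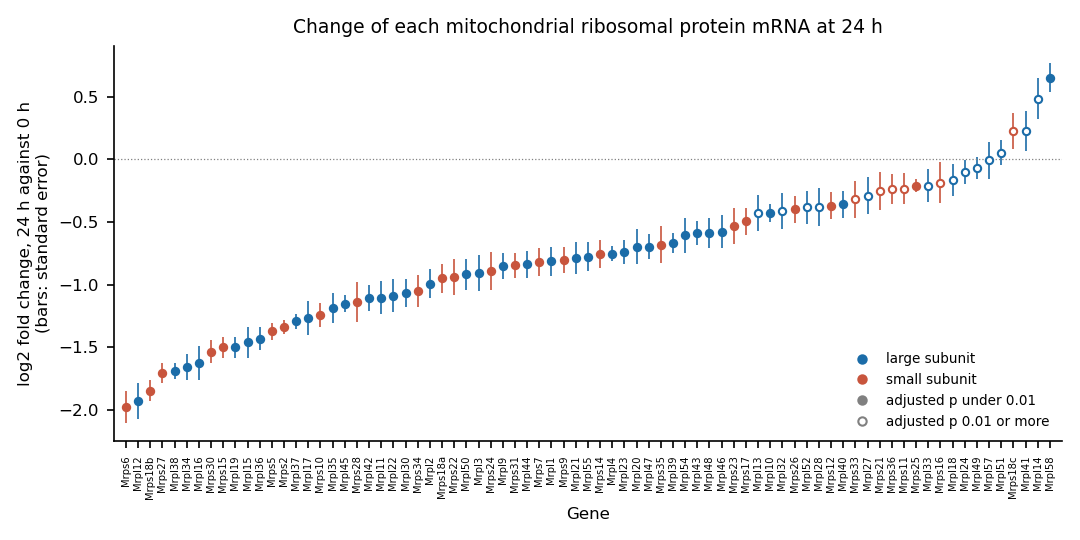
Log2 fold change at 24 h against 0 h for each of the 77 members, sorted, with the standard error of the edgeR fit; blue points are large subunit genes, red points small subunit genes, and filled points have an adjusted p under 0.01. Both subunits are spread along the whole order, Mrps6 (-1.98) is lowest and Mrpl58 (0.65) is the 1 gene called higher.

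Earlier, the picture was less uniform. At 2 h, 8 members were lower (10.4%), close to the 8.59% of all tested genes. At the same time 0 members were higher, against 6.6% of all tested genes. No member was higher at an unadjusted p under 0.05 or with DESeq2, which called 18 lower. By sign, 66 of 77 were lower at 2 h, with a median of -0.17, against 7118 of 14485 tested genes. In 49 members no 2 h library reached any 0 h library from below, as in 26.8% of tested genes. The number called at 2 h ranged from 2 to 32 as single libraries were left out, and was 32 without the third 24 h library, which enters the shared estimate of the spread. Fitted on 0 and 2 h only, 40 were lower and 1 higher.

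At 4 h, 21 members were lower and 2 higher than at 0 h (19.9% and 18.1% of all tested genes), with a median of -0.06. With upper-quartile factors the split was 19 lower and 11 higher and the median 0.036, without the third 24 h library it was 31 and 14, and in a fit of 0 and 4 h only it was 32 and 9. At 8 h, 41 were lower and 4 higher (25.1% and 25.3% of all tested genes), with a median of -0.38; with upper-quartile factors 26 were lower. The median member stood at 89.2%, 95.6% and 76.9% of its 0 h level at 2, 4 and 8 h.

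Between neighbouring times up to 4 h the median of the members moved little, by -0.17 and then 0.064, while single members moved in both directions. At 4 h against 2 h, 5 members were lower and 2 higher (13.0% and 7.72% of all tested genes). A positive log2 fold change was found in 45 of 77, and in 7490 of 14485 tested genes. In 21 members every 4 h library lay below every 2 h library and in 30 above, as in 27.6% and 26.7% of tested genes. Without the third 24 h library 15 were lower and 21 higher, and with upper-quartile factors 4 and 4, and in a fit of these times only 13 and 22. At 8 h against 4 h, 21 were lower and 0 higher (6.97% and 5.73% of all tested genes), with a median of -0.30. A negative log2 fold change was found in 73 of 77, and in 7373 of 14485 tested genes. At 24 h against 8 h, 31 were lower and 0 higher (17.3% and 20.8% of all tested genes), with a median of -0.36. No member was higher in either step at an unadjusted p under 0.05 in edgeR or in DESeq2. Without the third 24 h library, 47 were lower and 1 higher in the step to 8 h, and 32 lower and 4 higher in the step to 24 h, where the median was then -0.19. Fits of the compared times only called 34 lower in the step to 8 h and 13 lower in the step to 24 h.

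**Figure D2:**
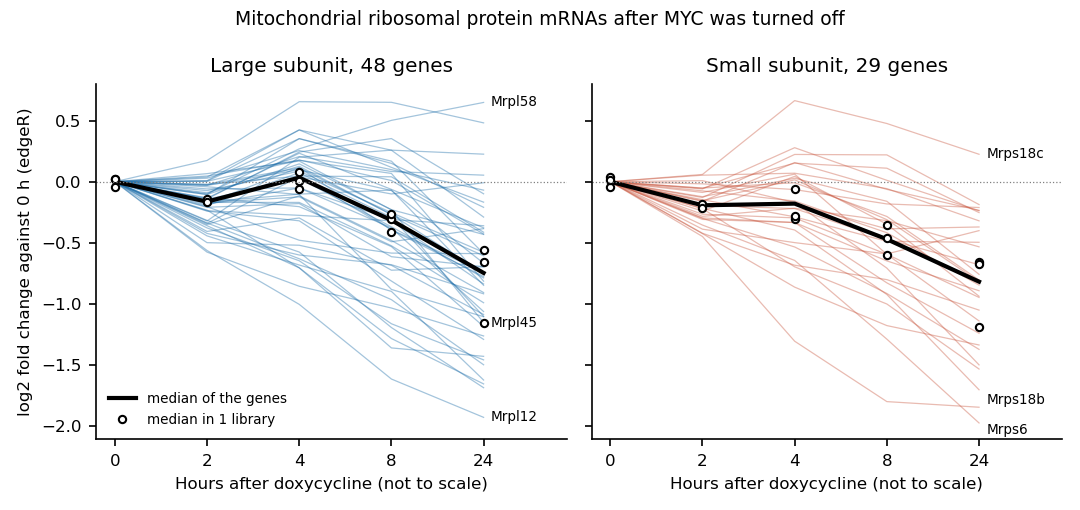
Log2 fold change against 0 h of each large subunit gene (left, blue) and small subunit gene (right, red) at 0, 2, 4, 8 and 24 h; the black line is the median over genes and the open circles are the medians in single libraries. Medians of the large subunit were -0.16, 0.03, -0.32 and -0.75, and those of the small subunit -0.19, -0.18, -0.47 and -0.82, at 2, 4, 8 and 24 h.

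At 4 h, 12 of 48 large subunit genes were lower and 1 higher, with a median of 0.03, and 9 of 29 small subunit genes were lower and 1 higher, with a median of -0.18. The difference of the medians, large minus small, was 0.24, 0.28 and 0.15 in the 4 h libraries. In the 0 h libraries it was between -0.01 and 0.01. These 0 h values are held near 0 because each gene is set against its own mean at 0 h. At 2 h the difference was 0.04 to 0.05 per library, with 5 large and 3 small subunit genes lower. At 8 h it was 0.19, 0.16 and 0.10, with 24 large and 17 small subunit genes lower. At 24 h it was 0.00, 0.12 and 0.03, with 34 of 48 large (median -0.75) and 23 of 29 small subunit genes lower (median -0.82). Of all tested genes, 8.59%, 19.9%, 25.1% and 28.1% were called lower at 2, 4, 8 and 24 h, and 18.1% were called higher at 4 h. The shares of large and small subunit genes called lower were 10.4% and 10.3% at 2 h, close to that of all tested genes. They were 25% and 31.0% at 4 h. The genes of a subunit were not tested as a set. Among the 45 members whose exons overlap no other gene the difference was -0.036, 0.11, 0.0066 and -0.14 at 2, 4, 8 and 24 h, so its sign at 2 and 24 h, its size at 8 h and the time at which it was largest depended on which members entered. With Mrps18a and Mrps30 counted on the large subunit and Mrps36 left out, it was 0.10 at 8 h.

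Which genes were called lower first? A call depends on the spread of a gene as well as on the size of its fall. Mrpl22, not called at 2 h, had 108, 108 and 106 CPM then, against 146, 157 and 152 CPM at 0 h. It stood at 70.8% of its 0 h level at 2 h, below Mrpl37 at 84.6%, which was called. The 8 members that were lower at 2 h were also lower at 4, 8 and 24 h, namely Mrpl12, Mrpl17, Mrpl19, Mrpl37, Mrpl38, Mrps2, Mrps5 and Mrps18b. Of these calls at 2 h, those of Mrps18b and Mrps2 held without any 1 library, and that of Mrpl38 was lost without the third 2 h library. The other 5 were lost without any of several libraries, with adjusted p (edgeR) up to 0.0378.

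Mrpl12 encodes the mitochondrial counterpart of bacterial L7/L12, the stalk protein that recruits translation factors, and was the second most abundant member per length. It had 252, 262 and 264 CPM at 0 h, 172, 179 and 176 CPM at 2 h, 130, 124 and 133 CPM at 4 h, 78.5, 82.8 and 92.4 CPM at 8 h, and 76.5, 80.8 and 46.7 CPM at 24 h. The libraries of each time up to 8 h lay below all libraries of the time before it, and those of 8 and 24 h overlapped. The log2 fold changes against 0 h were -0.56 ± 0.14, -1.01 ± 0.14, -1.62 ± 0.14 and -1.93 ± 0.14 (SE) at 2, 4, 8 and 24 h, with an adjusted p of 8.17e-09 at 24 h (edgeR). An antisense lincRNA covers 13.1% of its exon bases. The other proteins at the stalk fell less and later. Mrpl11, at the stalk base, was at -0.29 at 8 h and lower, at -1.10 ± 0.13 at 24 h, and Mrpl10, which anchors the stalk, was at 0.01 at 8 h and lower, at -0.43 ± 0.07 at 24 h, a call lost on library totals (-0.15, adjusted p = 0.0615, edgeR). This stalk group was picked after the values were seen.

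Mrps2, a counterpart of bacterial S2, had 37.0, 36.2 and 37.1 CPM at 24 h, against 90.2, 94.3 and 94.3 CPM at 0 h. The 24 h libraries lay close together, with the third no lower than the rest, and the log2 fold change was -1.34 ± 0.06. Mrpl38, a protein of the central protuberance of the large subunit, had 34.8, 35.3 and 31.9 CPM at 24 h, against 107, 111 and 110 CPM at 0 h. Its log2 fold change of -1.69 ± 0.06 had the lowest adjusted p of the members (3.49e-12, edgeR). Mrpl34, a small protein with a bacterial counterpart and the most abundant member per length, had 40.6, 37.5 and 27.8 CPM at 24 h, against 107, 115 and 112 CPM at 0 h, a log2 fold change of -1.66 ± 0.10.

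Mrps6, a counterpart of bacterial S6, had the lowest log2 fold change of all members at 24 h, -1.98 ± 0.13 (adjusted p = 1.35e-09, edgeR). It had 36.4, 38.4 and 35.8 CPM at 0 h, 27.9, 28.2 and 30.4 CPM at 2 h, 21.2, 22.9 and 26.7 CPM at 4 h, 14.6, 14.9 and 15.8 CPM at 8 h, and 10.2, 10.8 and 7.12 CPM at 24 h. No libraries of different times overlapped. Its exons share bases with Slc5a3 and a further gene on the same strand, so some reads may belong to either. Mrps27, a pentatricopeptide repeat protein that binds RNA, was lower, at -1.71 ± 0.08 at 24 h, and Mrps30 was lower, at -1.53 ± 0.09. Mrpl16 and Mrpl19 were lower, at -1.62 ± 0.14 and -1.50 ± 0.08, as was Mrps15, at -1.50 ± 0.08. Genes on the opposite strand cover 36.0%, 24.2% and 9.35% of the exon bases of Mrpl19, Mrps27 and Mrps30.

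The 3 genes of the Mrps18 family did not move together. Bacteria have a single S18 protein. Of its mammalian relatives, Mrps18b and Mrps18c belong to the small subunit and Mrps18a to the large one. Mrps18b had 57.0, 59.4 and 62.1 CPM at 0 h, 43.5, 43.6 and 43.6 CPM at 2 h, 25, 23.3 and 23.8 CPM at 4 h, 17.2, 16.4 and 17.6 CPM at 8 h, and 17.2, 18.2 and 14.1 CPM at 24 h. Nearly all of its fall was over by 8 h. The log2 fold changes were -0.45 ± 0.08, -1.31 ± 0.08, -1.80 ± 0.08 and -1.85 ± 0.08 (SE), and at 4 h it was the lowest of all members (adjusted p = 3.24e-09, edgeR). An antisense gene covers 30.5% of its exon bases.

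Mrps18a had 72.9, 78.7 and 71.0 CPM at 0 h, 67.8, 57.8 and 59.6 CPM at 2 h, 58.4, 60.1 and 62.9 CPM at 4 h, 47.9, 47.7 and 51.9 CPM at 8 h, and 39.6, 45.9 and 29.9 CPM at 24 h. All libraries from 2 h on lay below those of 0 h, and it was called lower at 8 h (-0.59 ± 0.12) and at 24 h (-0.95 ± 0.12). Mrps18c had 35.3, 40.9 and 41.6 CPM at 0 h, 38.7, 41.6 and 42.4 CPM at 2 h, 58.2, 61.3 and 67.3 CPM at 4 h, 48.3, 54.0 and 61.7 CPM at 8 h, and 53.2, 51.5 and 33.0 CPM at 24 h. It was higher at 4 h by 0.66 ± 0.14 (adjusted p = 0.00126, edgeR; 0.0134 without the third 4 h library), and at 24 h its value was 0.22 ± 0.14 (adjusted p = 0.178, edgeR), or 0.42 without the third 24 h library (adjusted p = 3.04e-04). Its call at 8 h (0.48 ± 0.14) was lost on leaving out any 1 of the 12 libraries of 0, 2, 4 and 8 h (adjusted p up to 0.0896, edgeR). A further gene on the same strand covers 23.2% of its exon bases. The plot of CPM by library shows the paralogs beside Mrpl12, Mrpl45 and Mrpl58.

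**Figure D3:**
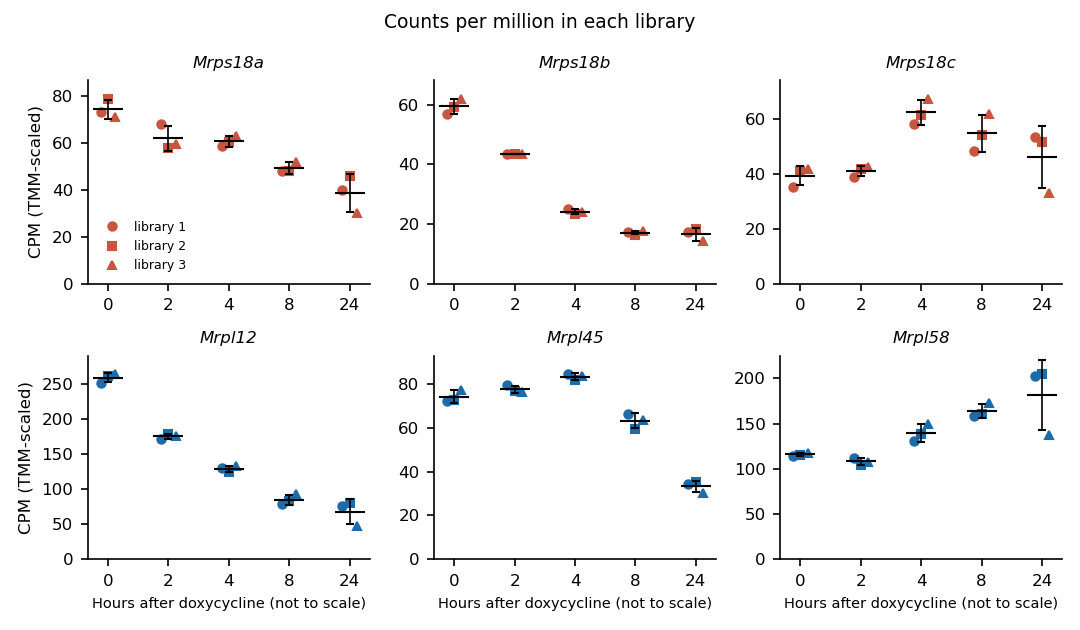
CPM on TMM-scaled totals in each library at 0, 2, 4, 8 and 24 h for the 3 Mrps18 paralogs (top) and for Mrpl12, Mrpl45 and Mrpl58 (bottom); circles, squares and triangles are libraries 1, 2 and 3, and bars give the mean and SD of 3. Mrps18b and Mrpl12 fall from 2 h on, Mrpl45 is above its 0 h level at 4 h and lowest at 24 h, and the third 24 h library is the lowest at 24 h in all 6 panels.

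How was the fall of each gene spread over time? Of the 77 members 58 were called lower at some time, 8 first at 2 h, 13 first at 4 h, 20 first at 8 h and 17 first at 24 h. The mean was lowest at 24 h in 54 of the 58 and at 8 h in 4 (Mrpl20, Mrpl52, Mrps12 and Mrps26). The step with the most negative log2 change was 0 to 2 h in 6, 2 to 4 h in 3, 4 to 8 h in 22 and 8 to 24 h in 27. The steps differ in length and the last is the longest, so these counts do not give a rate of fall. The median change of all 77 members was -0.30 from 4 to 8 h and -0.36 from 8 to 24 h. Without the third 24 h library 32 members were lower at 2 h and 6 were first lower at 24 h, and the last step was the largest in 20. In fits of the compared times only, 40 were lower at 2 h and 3 were first lower at 24 h. The time of a first call therefore depended on the fit as well as on the gene. The median member had reached 20.6%, 25.5% and 62.9% of its full log2 fall at 2, 4 and 8 h.

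By subunit, the large subunit genes had reached 18.8%, 17.1% and 53.0% of their fall (median of 35 genes) and the small subunit genes 24.3%, 32.4% and 65.3% (median of 23 genes). At 4 h, 4 of the 35 large and 5 of the 23 small subunit genes had reached at least 50% of it. In 12 of the 35 large and 4 of the 23 small subunit genes the mean at 4 h was above that of 0 h. At 4 h, 35 of all 77 members and 8036 of 14485 tested genes had a positive log2 fold change against 0 h. The shares of the fall come from fitted values of the same libraries and were not tested. The early genes were Mrps26 (84.3% at 4 h), Mrpl43 (81.4%), Mrps18b (70.7%), Mrpl17 (67.8%), Mrpl50 (65.4%), Mrps34 (65.0%), Mrps2 (64.6%), Mrps17 (58%) and Mrpl12 (52.1%). Of the exon bases of Mrps34, 63.4% are shared with Mapk8ip3 on the opposite strand and 37.0% with Nme3 on the same strand. Twnk covers 33.4% of those of Mrpl43, so some reads may belong to these other genes. Mrps26 was lower, at -0.59 ± 0.11 at 8 h and at -0.40 ± 0.11 at 24 h, where the 24 h call was lost on library totals (-0.13) and without the second or the third 0 h library (adjusted p = 0.0112 and 0.0164, edgeR).

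**Figure D4:**
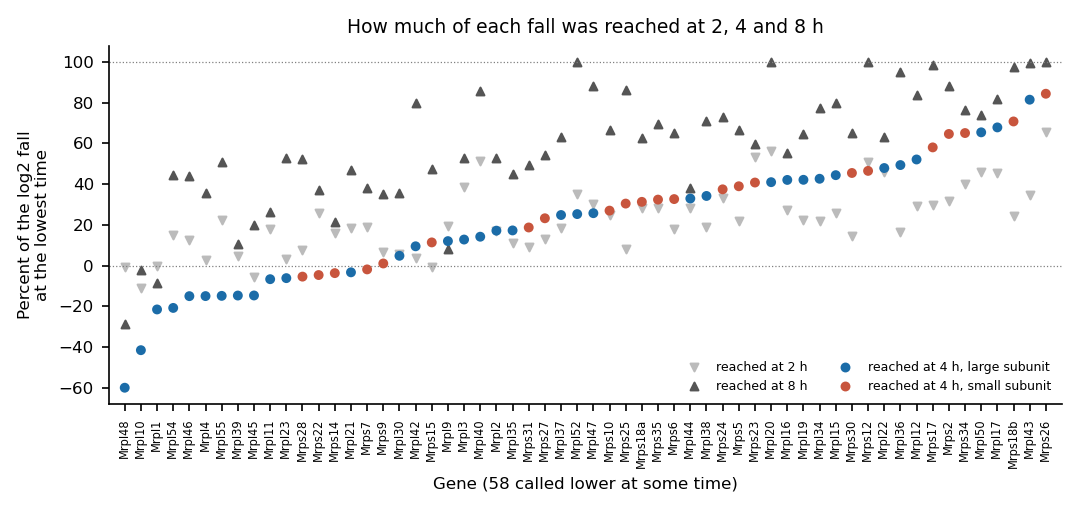
Percent of the log2 fall at the lowest time that was reached at 2 h (grey), 4 h (blue, large subunit; red, small subunit) and 8 h (dark triangles) for the 58 members called lower at some time, sorted by the value at 4 h. Values under 0 are genes whose mean was above that of 0 h, with Mrpl48 (-60.0% at 4 h) at the left end and Mrps26 (84.3%) at the right end.

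Some of the late genes were above their 0 h level at 4 h, before they fell. Mrpl45, whose product anchors the ribosome to the inner membrane, had 72.5, 72.7 and 77.6 CPM at 0 h, 79.6, 77.1 and 76.6 CPM at 2 h, 84.7, 81.8 and 84.0 CPM at 4 h, 66.5, 59.7 and 63.7 CPM at 8 h, and 34.3, 35.3 and 30.5 CPM at 24 h. The 4 h libraries lay above and the 24 h libraries far below all others. The step from 8 h was the largest of all members, at -0.92 ± 0.07 (adjusted p = 6.70e-08, edgeR, 24 h against 8 h). Against 0 h it was at 0.17 ± 0.07 at 4 h (adjusted p = 0.0433, edgeR) and lower, at -1.15 ± 0.07 at 24 h.

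Mrpl48, another protein of the central protuberance, had 55.9, 58.2 and 57.5 CPM at 0 h, 72.3, 66.9 and 80.0 CPM at 4 h, and 40.1, 44.6 and 29.3 CPM at 24 h, without overlap between these times. Its call at 24 h (-0.59 ± 0.12) was lost on library totals. Mrpl1, a counterpart of bacterial L1, had 74.1, 71.4 and 51.9 CPM at 24 h, against 107, 125 and 115 CPM at 0 h, and its step from 8 to 24 h was -0.88 ± 0.11. Mrpl11 and Mrpl9 also fell mostly in the last step, at -0.81 ± 0.13 and -0.78 ± 0.10. In the small subunit, Mrps15, Mrps27, Mrps6 and Mrps14 had the most negative last steps (-0.79, -0.78, -0.69 and -0.60), and all of these but Mrps14 were already lower at 8 h. The last steps of Mrpl11, Mrps6 and Mrps14 did not pass in a fit of 8 and 24 h only (adjusted p = 0.0105, 0.0135 and 0.0159, edgeR).

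Proteins that line the polypeptide exit tunnel also differed among themselves, in a group picked after the values were seen. At 24 h Mrpl22 was lower, at -1.09 ± 0.13, as was Mrpl23, at -0.74 ± 0.10, and Mrpl24 was at -0.10 ± 0.09 (adjusted p = 0.364, edgeR). The members that never passed the test against 0 h were 15, of which 10 belong to the large subunit (Mrpl13, Mrpl18, Mrpl27, Mrpl28, Mrpl32, Mrpl33, Mrpl41, Mrpl49, Mrpl51 and Mrpl57) and 5 to the small one (Mrps11, Mrps16, Mrps21, Mrps33 and Mrps36). Mrpl41 had 120, 126 and 71.7 CPM at 24 h, against 84.0, 95.5 and 92.2 CPM at 0 h, so that the third 24 h library lay below and the others above the 0 h range. Mrps36, the dehydrogenase subunit, was at -0.24 ± 0.12 at 24 h, and at 0.034 on library totals.

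Which members rose? Against 0 h only Mrpl14, Mrpl24, Mrpl58 and Mrps18c were called higher at any time. Mrpl58 encodes ICT1, a peptidyl-tRNA hydrolase that frees stalled ribosomes and is also built into the large subunit. It had 115, 116 and 117 CPM at 0 h, 112, 105 and 108 CPM at 2 h, 131, 138 and 150 CPM at 4 h, 158, 161 and 173 CPM at 8 h, and 203, 205 and 137 CPM at 24 h. All libraries from 4 h on lay above those of 0 h. The log2 fold change was 0.65 ± 0.11 at 24 h (adjusted p = 1.16e-04, edgeR) and 0.82 without the third 24 h library, and the call was lost when only 0 and 24 h were fitted (0.62, adjusted p = 0.0106, edgeR). At 8 h it was 0.50 ± 0.11, a call lost without the third 8 h library (0.42, adjusted p = 0.0162, edgeR).

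Mrpl14, a counterpart of bacterial L14, had 59.2, 67.2 and 68.0 CPM at 0 h, 101, 93.5 and 112 CPM at 4 h, 87.4, 106 and 112 CPM at 8 h, and 104, 107 and 59.9 CPM at 24 h. It was higher at 4 h by 0.66 ± 0.16 and at 8 h by 0.65 ± 0.16, and both calls were lost without the first 0 h library (adjusted p = 0.0205 and 0.0165, edgeR). The 4 h call was also lost without the second 0 h library or the first or the third 4 h library, and the 8 h call without the second or the third 8 h library (adjusted p of 0.0107 to 0.0300, edgeR). At 24 h it was at 0.48 ± 0.16 (adjusted p = 0.0159, edgeR), and at 0.71 without the third 24 h library. Mrpl24 was higher at 8 h by 0.35 ± 0.09, a call lost without any 1 of 8 libraries (each of 0 h, the third of 2 h, and the second and the third of 4 h and of 8 h), with an adjusted p (edgeR) up to 0.0681. All 4 genes share exon bases with another gene, which are 26.3% of the exon bases of Mrpl24, 23.2% of Mrps18c, 11.2% of Mrpl14 and 0.0600% of Mrpl58. Among the 45 members without such an overlap 0 were higher at 4, 8 or 24 h against 0 h.

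Many members start close to a gene on the opposite strand, and 26 have a protein-coding neighbour in this head-to-head arrangement. At 24 h, 17 of these 26 members were lower, and of the neighbours 8 were lower and 6 higher, beside 28.1% lower and 30.7% higher among all tested genes. In 7 pairs both genes were lower and in 2 the member was lower and the neighbour higher. The median log2 fold change at 24 h was -0.59 over these members and -0.24 over the neighbours. Mrps18b was lower, at -1.85, whereas Ppp1r10, which starts 45 bases away on the other strand, was at -0.24 ± 0.11 (adjusted p = 0.0749, edgeR). Mrpl2 was lower, at -0.99 and its neighbour Klc4 higher, at 0.37 ± 0.10. Mrps27 and its neighbour Ptcd2 were both lower, at -1.71 and -1.44. Mrpl46 and Mrps11 share such a promoter with each other, and Mrpl46 was lower, at -0.58 ± 0.13 and Mrps11 at -0.23 ± 0.12 (adjusted p = 0.105, edgeR).

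The rest of the mitochondrial translation system was examined by lists of genes. Of 5 ribosomal proteins known under other symbols, 3 were lower at 24 h, namely Ptcd3 (-1.69), Gadd45gip1 (-1.25) and Dap3 (-0.61), and Chchd1 (-0.54) and Aurkaip1 (-0.30) did not pass. Of 30 assembly and rRNA modification factors, 22 were lower and 1 higher at 24 h, with a median of -0.66. The higher call, of Trmt2b (0.35), was lost without any 1 of 11 libraries (each of 4 and 8 h, the third of 2 h, and the first and the second of 0 and 24 h), with an adjusted p (edgeR) up to 0.0305. C1qbp, a matrix protein that binds RNA and is needed for mitochondrial translation, had 30.8, 35.2 and 25.1 CPM at 24 h, against 446, 469 and 470 CPM at 0 h, a log2 fold change of -3.93 that no member reached. The GTPase Noa1 was lower, at -2.91, Rcc1l at -2.05 and Fastkd2 at -1.99, and at 2 h 9 of the list were already lower (14 without the third 24 h library).

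Of 19 translation factors 14 were lower and 1 higher at 24 h (median -0.70), among them Lrpprc (-2.23), which stabilises mitochondrial mRNAs, and the elongation factors Gfm1 (-1.70) and Tufm (-1.69). The gene that rose was Mtrf1l (0.63), a release factor. Of 10 transcription and RNA processing factors 6 were lower and 1 (Mterf2, 0.47) higher, with Elac2 (-2.24), the tRNA 3′ processing enzyme, lowest. The mitochondrially encoded 16S rRNA mt-Rnr2, with which the large subunit is built, was higher at 24 h by 1.59 ± 0.17 (adjusted p = 8.33e-07, edgeR), at 881, 976 and 622 CPM against 275, 275 and 275 CPM at 0 h, and mt-Rnr1 was at 0.22. Libraries made from polyA RNA may not capture these rRNAs evenly. Of 12 mitochondrially encoded mRNAs tested, 2 were lower (mt-Nd1 and mt-Nd2) and 2 higher (mt-Co1 and mt-Co3) at 24 h. Few reads were counted for mt-Co3, with means of 1.25 CPM at 0 h and 2.64 CPM at 24 h, against 5812 and 8096 CPM for mt-Co1. The means of mt-Co2, mt-Atp6, mt-Atp8 and mt-Nd3 at 0 h were also low, at 0.722, 1.22, 0.342 and 0.0918 CPM.

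The time course of the members was set beside that of lists with a related role. The 85 cytosolic ribosomal protein genes had medians of -0.02, 0.21, 0.13 and -1.33 at 2, 4, 8 and 24 h. Up to 8 h at most 4 of the 85 were lower, or 8 without the third 24 h library, against 41 of the 77 members at 8 h, and at 24 h 80 were lower. At 2 h 0 of them were lower (edgeR; 1 at an unadjusted p under 0.05 and 1 with DESeq2). Their median log2 ratio was -1.19, -1.10 and -1.83 in the 24 h libraries, so that the third library was lowest there too. The 24 import genes (TIM and TOM) had medians of -0.30, -0.43, -0.79 and -1.06, with 13 lower at 4 h and 18 at 24 h, the lowest being Tomm20l (-2.78), Tomm5 (-2.77), Timm9 (-2.73) and Timm8a1 (-2.68). The 78 nuclear-encoded respiratory chain subunits had medians of -0.03, 0.27, 0.13 and -0.45, with 1 lower and 6 higher at 4 h, 13 lower and 12 higher at 8 h, and 39 lower and 2 higher at 24 h. The lists share libraries and the 0 h controls, and their differences were not tested.

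**Figure D5:**
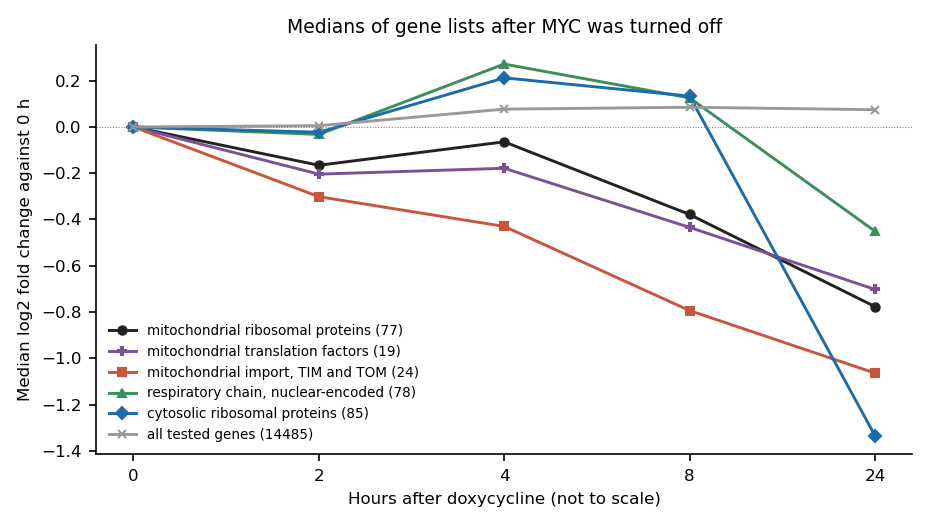
Median log2 fold change against 0 h of 6 gene lists at 0, 2, 4, 8 and 24 h, with the number of genes tested in brackets. The members (black) are at -0.38 and the cytosolic ribosomal proteins (blue) at 0.13 at 8 h, and at -0.78 and -1.33 at 24 h.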

How the data were processed

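Tables of 53380 features were deposited for each library, with raw counts and the authors' TPM and FPKM. Per the submitters' processing notes, reads were trimmed with cutadapt 1.16, aligned with STAR 2.5.4b to mm10 and counted with featureCounts. No source used here gives the strand setting, so reads of overlapping genes cannot be told apart. The deposited counts are not normalized, and the deposited TPM were used for levels per length. The FPKM were not used.

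Tests used edgeR 4.0.16 under R 4.3.3 (filterByExpr, TMM factors, quasi-likelihood fit over all 15 libraries with 1 mean per time point, Benjamini-Hochberg adjustment over all 14485 genes). CPM are on TMM-scaled totals. A standard error is the log2 fold change divided by the square root of the F statistic. The 3 counts that an observed 0 allows are 0.111 to 0.116 CPM, for counting error only. Gene positions come from GENCODE M21 on GRCm38 and promoter windows from RefSeq (GRCm38.p6).

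In each contrast the 5 lowest members of each subunit that passed were named first, then members that rose or did not pass, the Mrps18 paralogs, Mrps30, Mrps36, the most abundant members, and up to 4 genes of each other list. The members, lists and this rule were chosen with earlier results of these data known. Alternatives were RLE, upper-quartile and library-total scaling, TMM without the 20 most abundant and the mitochondrially encoded genes, other filters, DESeq2 1.42.0, fits of the compared times only, an adjusted p under 0.05, a replicate block, leaving out each library, the subunit by structure, and members that overlap no other gene.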

Additional observations from a re-analysis of the deposited data

How the results depend on the processing

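The fall at 8 and 24 h against 0 h kept its direction for the members as a set under every alternative run, and the counts at 2 and 4 h and between neighbouring times depended most on the setting; the causes were not tested. Dependence on 1 library was largest for the third 24 h library, which enters the shared estimate of the spread. The members had at least 213 counts in every library.

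Fits of the compared times only called 40 members lower and 1 higher at 2 h, 32 and 9 at 4 h, 13 and 22 in the step to 4 h, 34 lower in the step to 8 h and 13 lower in the last step, with 0 higher at 24 h and 3 first lower at 24 h. DESeq2 called 18 lower at 2 h, and 8 lower and 5 higher at 4 h against 2 h, and its 2 h median was -0.21, as with RLE size factors. An adjusted p under 0.05 gave 18 lower at 2 h, 9 higher at 4 h, 2 higher at 24 h, and 10 lower and 10 higher at 4 h against 2 h. With no low-count filter 13 were lower at 2 h, 6 higher at 4 h, 2 higher at 24 h and 11 higher at 4 h against 2 h, and with 10 counts in every library 8 were lower and 1 higher at 4 h against 2 h.

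Upper-quartile factors gave 5 lower at 2 h, 11 higher at 4 h, 26 lower at 8 h, 2 higher at 24 h, 4 higher at 4 h against 2 h and 27 first lower at 24 h, and the medians were 0.036 (4 h), -0.22 (8 h) and 0.13 (4 h against 2 h). On library totals 5 members were higher at 4 h, 5 at 24 h and 1 in the last step, with medians of -0.12 at 2 h and -0.27 at 8 h, and levels of 92.0%, 82.9% and 70.5% of 0 h at 2, 8 and 24 h. In TPM the levels were 90.8% at 2 h and 73.7% at 24 h. Mrpl24 at 24 h turned to 0.18 on library totals and 0.042 with upper-quartile factors, and Mrps36 to 0.034 on library totals.

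Among the 45 members that overlap no other gene, 5, 11, 27 and 36 were lower at 2, 4, 8 and 24 h, 2 at 4 h against 2 h and 20 at 24 h against 8 h, 0 were higher at 4, 8 or 24 h or at 4 h against 2 h, 10 were first lower at 24 h, and the last step was the largest in 16. Large minus small subunit medians were then -0.036, 0.11, 0.0066 and -0.14 at 2, 4, 8 and 24 h and 0.052 at 4 h against 2 h. With the subunit by structure they were 0.0094 at 2 h and 0.10 at 8 h.

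Leaving out single libraries gave 2 to 32 members lower at 2 h, and 0 to 14, 0 to 6 and 1 to 5 higher at 4, 8 and 24 h. In the steps, 4 to 15 were lower and 0 to 21 higher at 4 h against 2 h, 14 to 47 lower and 0 to 1 higher at 8 h against 4 h, and 0 to 4 higher at 24 h against 8 h. The medians ranged from -0.15 to -0.052 at 4 h, from -0.47 to -0.36 at 8 h and from -0.034 to 0.063 at 4 h against 2 h, the 2 h level from 87.8% to 89.9%, and the share of the fall at 4 h from 23.8% to 33.4%. From 6 to 22 were first lower at 24 h, and the subunit difference was 0.011 to 0.055 at 2 h and 0.10 to 0.19 at 8 h.

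The labels give every time point the same replicate numbers. The deviations of libraries from the mean of their time point were correlated between times. They correlated at -0.312 to 0.211 (median 0.0254) in 30 same-numbered pairs. In 60 pairs with different numbers the range was -0.234 to 0.309 (median -0.0094). The numbers were therefore not taken to pair the libraries. With a replicate block, 6, 20, 36 and 56 members were lower at 2, 4, 8 and 24 h, and 5, 16 and 29 in the steps to 4, 8 and 24 h. Of the values of single genes under all alternatives 2546 kept their side of the threshold, 160 lost a call and 16 gained one.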
